A study of Mus musculus with 55 samples.

Results

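The late transcriptional response to potassium chloride (KCl) was compared between immature and mature mouse neurons in culture. For each gene the change after 180 min of KCl was taken at 21DIV and at 7DIV (days in vitro), and the 7DIV change was subtracted from the 21DIV change. Genes were then sorted by whether their late response was gained, lost or kept with maturation. This contrast used 12 of the 55 samples of the series, in 4 groups of 3, and was tested for 11745 genes.

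Neurons came from cortex and hippocampus of CD1 mouse embryos of mixed sex, at embryonic day 16 to 17.5 according to the sample labels, and were grown together without separating the regions. The 4 groups were 7DIV basal, 7DIV with KCl for 180 min, 21DIV basal and 21DIV with KCl for 180 min. The older cultures are labelled 23 days in vitro in the samples and fall in the window that the study names 21DIV, a name kept here. KCl was added to 55 mM in conditioned medium, basal wells were handled alike without a drug, no group was silenced beforehand, and RNA was read as 3′ ends with CEL-Seq2, a tagging method that counts transcripts near their end. The basal samples are labelled 0 min, and the labels name no control kept for 180 min without KCl.

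High extracellular potassium depolarizes the membrane, opens voltage-gated calcium channels and lets calcium activate kinase cascades of the CaMK and ERK type. These act on factors already present in the nucleus, such as CREB and SRF, and a class of immediate early genes that code for transcription factors rises without new protein synthesis. A later wave of effector genes follows, and its content depends on the cell type and the state of the cell.

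Library depth ranged from 1659629 to 3664407 counts on genes in the 7DIV samples and from 4102925 to 9254111 in the 21DIV samples compared, so that the 21DIV libraries were the deeper ones. On the principal components of each stage 3 libraries stood apart from their group, namely 7DIV basal replicate 3, 21DIV basal replicate 1 and 21DIV KCl 180 min replicate 1. The last of these sat at -2.3 on the first component where the other 2 replicates sat at 15.3 and 14.6, and values without these 3 libraries are given beside the results they move. The labels do not say whether replicates were separate cultures, so p-values measure the spread between these samples. Markers of neurons summed to between 7251 and 10611 CPM (counts scaled to library size) in every compared sample and those of microglia to at most 17.5 CPM. Excitatory neuron markers summed to 1410 to 1646 CPM in the 7DIV samples and 704 to 1054 CPM in the 21DIV samples. Inhibitory neuron markers summed to 2560 to 3093 CPM and 3377 to 3909 CPM.

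At 7DIV the late response was called for 233 genes (1.98% of those tested), with 123 rises (1.05%) and 110 falls (0.937%), and at 21DIV for 574 genes (4.89%), with 350 rises (2.98%) and 224 falls (1.91%). Calls of a response needed at least 1.5-fold besides an adjusted p under 0.05 in edgeR's quasi-likelihood test. The difference between the stages itself was called for 91 genes, 0.775% of those tested, of which 51 (0.434%) had the more positive change at 21DIV and 40 (0.341%) the more negative. Levels themselves differed more widely, with 31.6% of genes called between the basal groups of both stages and 35.1% between the KCl groups. Without the 3 libraries that stood apart 365 differences were called, 73 of them among these 91. In that fit 40 of the 43 gained genes and 10 of the 26 lost genes described next stayed in their class.

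The 91 genes and the genes called at both stages were divided by their pattern. Gained genes, with a called response at 21DIV alone and a called difference, numbered 43, of which 29 rose and 14 fell. Lost genes, with a called response at 7DIV alone and a called difference, numbered 26, of which 14 rose and 12 fell. Kept genes responded in the same direction at both stages without a called difference and numbered 53, of which 43 rose and 10 fell. A larger response at 21DIV was called for 2 genes, opposite responses for 3, and 17 genes had a called difference without a called response at either stage. The remaining 622 genes responded by the call at 1 stage alone, 149 at 7DIV and 473 at 21DIV, and their difference missed the threshold, so they count neither as gained nor as lost. A kept response is not shown to be equal at both stages, and the 95% interval of the difference lay within 1 log2 unit of 0 for 26 of the 53.

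**Figure D1:**
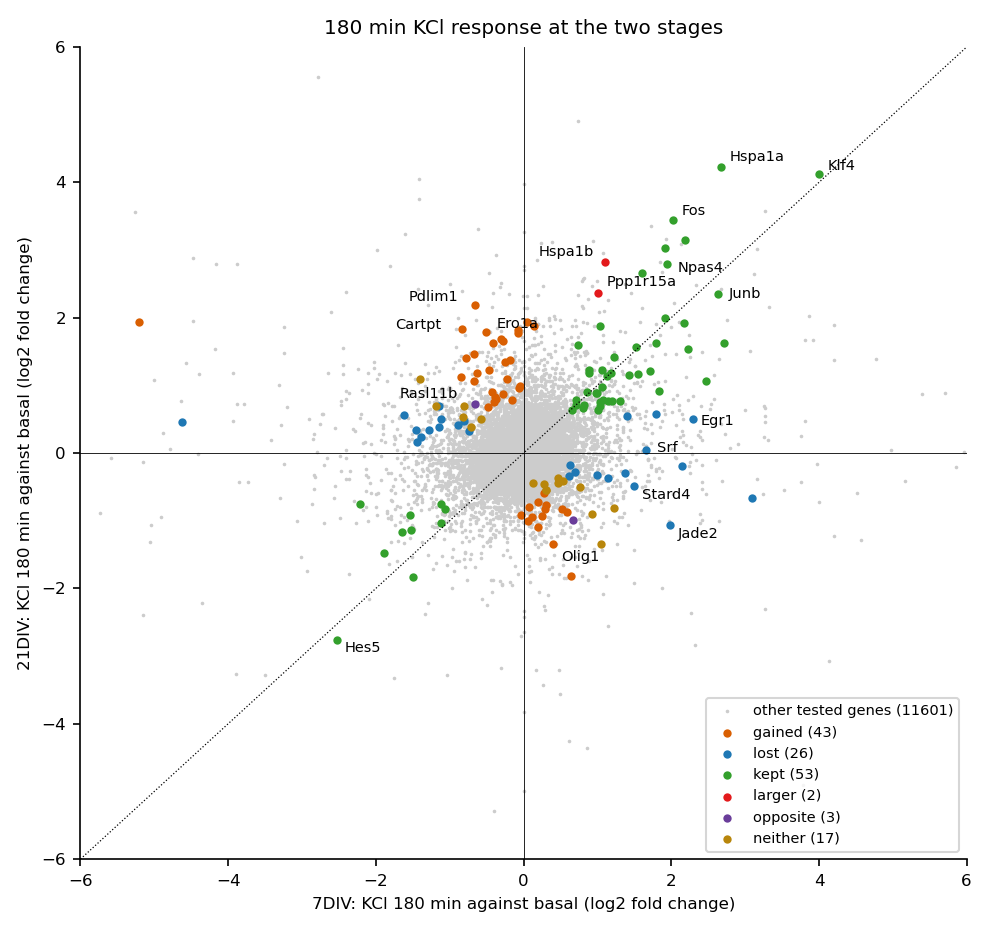
Log2 fold change after 180 min of KCl against basal at 7DIV (horizontal axis) and at 21DIV (vertical axis), 1 point per gene, coloured by class, with 6 genes outside the axes. Kept genes lie in the quadrants of equal sign, with Klf4 and Junb near the dotted line of equal change and Fos and Hspa1a above it, and gained genes lie above or below 0 on the vertical axis with 7DIV values on the other side of 0 or near it.

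Promoter sequences were set beside the classes, since CREB, EGR and heat shock factors act through short motifs near start sites. RefSeq promoters of GRCm38.p6, windows that span a start site, matched 9379 of the 11745 tested genes, 36 of the 43 kept rises and 23 of the 29 gained rises. The core of the cAMP response element, TGACG on either strand, was found in 58.3% of the matched kept rises and 52.2% of the matched gained rises, against 36.8% of all matched genes. It was also in 54.5% of the matched lost falls (6 of 11). The full element TGACGTCA, which contains that core, was in 8.33% and 8.7% against 3.9%, and in 10% of the gained falls and 9.09% of the lost falls, 1 gene each. The EGR motif GCGGGGGCG was in 19.4% of kept rises against 6.93% of all genes, and the heat shock motif GAANNTTC in 16.7% against 6.67%. The E-box CACGTG was in 26.1% of gained rises and 19.4% of kept rises against 12% of all genes, and the AP-1 motif TGANTCA in 4.35% of gained rises against 5.76%. Genes with several start sites have more sequence to match, the counts are small, and a match of letters shows no binding.

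The promoters that follow, written 5′ to 3′ in the direction of the gene, show these letters in genes of 3 classes. Capitals mark TGACG or its reverse complement in the kept genes Fos (chr12:85473640-85473939, + strand, 2 matches) and Nr4a1 (chr15:101266596-101266895, + strand, 4 matches), GAANNTTC in the larger gene Hspa1b (chr17:34959189-34959488, - strand), TGACGTCA in the larger gene Ppp1r15a (chr7:45526219-45526518, - strand) and the gained gene Cartpt (chr13:99900634-99900933, - strand), and CACGTG in the gained gene Klf6 (chr13:5861239-5861538, + strand).
Fos: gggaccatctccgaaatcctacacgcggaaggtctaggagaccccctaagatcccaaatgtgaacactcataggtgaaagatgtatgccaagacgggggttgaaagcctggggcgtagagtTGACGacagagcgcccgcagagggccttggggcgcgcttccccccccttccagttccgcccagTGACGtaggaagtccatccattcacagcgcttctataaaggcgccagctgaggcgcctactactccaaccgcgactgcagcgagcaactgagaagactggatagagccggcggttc
Nr4a1: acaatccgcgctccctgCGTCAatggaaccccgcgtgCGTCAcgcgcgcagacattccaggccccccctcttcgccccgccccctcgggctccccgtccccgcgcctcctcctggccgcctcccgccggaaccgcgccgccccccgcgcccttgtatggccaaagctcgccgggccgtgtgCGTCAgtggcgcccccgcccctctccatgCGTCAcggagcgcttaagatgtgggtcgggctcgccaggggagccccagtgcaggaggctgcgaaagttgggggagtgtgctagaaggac
Hspa1b: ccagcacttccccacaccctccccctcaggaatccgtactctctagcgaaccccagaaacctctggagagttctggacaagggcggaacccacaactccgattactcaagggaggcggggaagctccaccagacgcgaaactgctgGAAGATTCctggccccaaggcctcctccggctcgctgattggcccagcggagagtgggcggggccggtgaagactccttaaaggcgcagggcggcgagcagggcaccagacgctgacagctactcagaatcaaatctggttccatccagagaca
Ppp1r15a: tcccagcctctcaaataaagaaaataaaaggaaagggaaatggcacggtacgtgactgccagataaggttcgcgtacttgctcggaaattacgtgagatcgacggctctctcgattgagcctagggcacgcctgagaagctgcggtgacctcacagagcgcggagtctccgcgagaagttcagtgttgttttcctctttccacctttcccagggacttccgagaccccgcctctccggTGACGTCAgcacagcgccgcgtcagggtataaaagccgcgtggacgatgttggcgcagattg
Cartpt: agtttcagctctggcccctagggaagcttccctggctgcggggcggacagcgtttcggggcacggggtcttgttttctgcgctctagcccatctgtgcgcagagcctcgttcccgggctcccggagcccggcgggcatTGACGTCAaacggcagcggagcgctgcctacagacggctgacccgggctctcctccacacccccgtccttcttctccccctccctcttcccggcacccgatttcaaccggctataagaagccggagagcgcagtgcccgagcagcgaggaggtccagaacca
Klf6: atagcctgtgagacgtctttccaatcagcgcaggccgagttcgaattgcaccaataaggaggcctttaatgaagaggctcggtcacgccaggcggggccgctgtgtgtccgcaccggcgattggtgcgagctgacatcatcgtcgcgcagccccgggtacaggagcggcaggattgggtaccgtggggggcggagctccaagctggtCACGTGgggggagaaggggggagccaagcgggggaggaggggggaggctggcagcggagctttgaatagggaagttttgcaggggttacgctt
The full element thus stands in a promoter of a gene that rose at both stages, Ppp1r15a, and in that of a gene called at 21DIV alone, Cartpt.

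The kept rises were led by immediate early transcription factors. Ranked by the smaller of their changes at both stages, the leading genes were Klf4, Fos, Fosb, Junb and Npas4 and the chaperone gene Hspa1a. Klf4, a zinc finger factor (chromosome 4, 55527137 to 55532475 on GRCm38.p6), read 1.42, 3.68 and 2.71 CPM in the 7DIV basal samples and 30, 42.9 and 51.2 CPM after KCl. At 21DIV Klf4 read 2.07, 0.894 and 0.221 CPM in basal samples and 12.3, 23.8 and 16.3 CPM after KCl. The groups did not overlap at either stage, and the log2 change of Klf4 was 4.00 ± 0.54 (SE) at 7DIV and 4.12 ± 0.54 at 21DIV, with a difference of 0.12 (95% interval -1.24 to 1.47).

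Fos, a subunit of the AP-1 factor, read 64.4, 71.2 and 77.2 CPM in 7DIV basal samples and 288, 268 and 314 CPM after KCl. In the 21DIV basal samples Fos was lower, at 21.6, 11.3 and 12.1 CPM, and it reached 72.2, 195 and 223 CPM after KCl, with replicate 1 below the other 2. The log2 change of Fos was 2.03 ± 0.28 at 7DIV and 3.45 ± 0.30 at 21DIV, and the difference of 1.43 ± 0.39 missed the threshold (adjusted p = 0.0779). In the fit without the 3 libraries apart the difference for Fos was 2.13 ± 0.30 and was called (adjusted p = 2.52e-04), and it was also called with all libraries by DESeq2, so its place among the kept genes depends on the libraries and on the test.

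Npas4, an activity-dependent factor of the bHLH-PAS family, read 287, 473 and 443 CPM in 7DIV basal samples and 969, 2000 and 1660 CPM after KCl. At 21DIV Npas4 read 106, 63.3 and 177 CPM before and 400, 1040 and 983 CPM after KCl. Its log2 changes were 1.94 ± 0.31 and 2.80 ± 0.31, and the difference of 0.86 ± 0.42 was not called (adjusted p = 0.348). The groups did not overlap at either stage, and 21DIV KCl replicate 1 lay below the other 2 as it did for Fos.

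Junb, another AP-1 subunit, changed by 2.63 ± 0.23 at 7DIV and 2.35 ± 0.22 at 21DIV, with an interval of the difference from -0.91 to 0.35. The orphan nuclear receptor Nr4a1 rose by 1.79 ± 0.27 and 1.63 ± 0.26, with an interval from -0.93 to 0.61. Both intervals exclude a difference of 1 log2 unit. For Nr4a2, a receptor of the same family, the changes were 1.91 ± 0.27 and 3.03 ± 0.30, and the difference of 1.13 ± 0.40 (adjusted p = 0.180) was called once the 3 libraries apart were left out (1.57, adjusted p = 0.0266). Nr4a3, the remaining member of the family, changed by 0.74 ± 0.20 and 1.60 ± 0.20 (difference 0.86 ± 0.28, adjusted p = 0.144), with 1.14 and a call in that same fit (adjusted p = 0.00600).

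Other kept rises included Atf4, Gadd45g, Mafk and Nfkbid. Atf4, the transcription factor of the integrated stress response, rose by 0.82 ± 0.14 at 7DIV and 0.71 ± 0.14 at 21DIV, with an interval of the difference from -0.52 to 0.29. Gadd45g, a stress-inducible gene with a role in growth arrest, rose by 1.91 ± 0.36 and 1.99 ± 0.34. Mafk, a small Maf factor, rose by 2.71 ± 0.35 and 1.62 ± 0.29, and Nfkbid, an atypical inhibitor of NF-kappaB proteins, rose by 2.47 ± 0.30 and 1.07 ± 0.28. For Nfkbid the difference of -1.40 lay close to the threshold without passing it (adjusted p = 0.0903).

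The kept falls included Hes5, a repressor downstream of Notch, and Mir124a-1hg, the host transcript of the neuronal microRNA miR-124. Hes5 read 9.95, 20.9 and 14.4 CPM in 7DIV basal samples and 3.86, 3.4 and 0.678 CPM after KCl. At 21DIV it read 13.1, 15.9 and 26.3 CPM before and 5.26, 2.24 and 0.472 CPM after KCl. Hes5 changed by -2.53 ± 0.59 and -2.76 ± 0.49, with an interval of the difference from -1.87 to 1.43 that leaves a wide range. Mir124a-1hg changed by -1.50 ± 0.30 and -1.83 ± 0.28, and the zinc finger genes Zfp27 (-1.64 ± 0.30 and -1.16 ± 0.29) and Zfp87 (-1.52 ± 0.32 and -1.13 ± 0.29) fell at both stages too. Nefh, the heavy neurofilament subunit, fell by 2.22 on the log2 scale at 7DIV and by 0.75 at 21DIV, where its basal level was 106, 84.2 and 82.7 CPM against 8.05, 17.8 and 9.21 CPM at 7DIV.

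**Figure D2:**
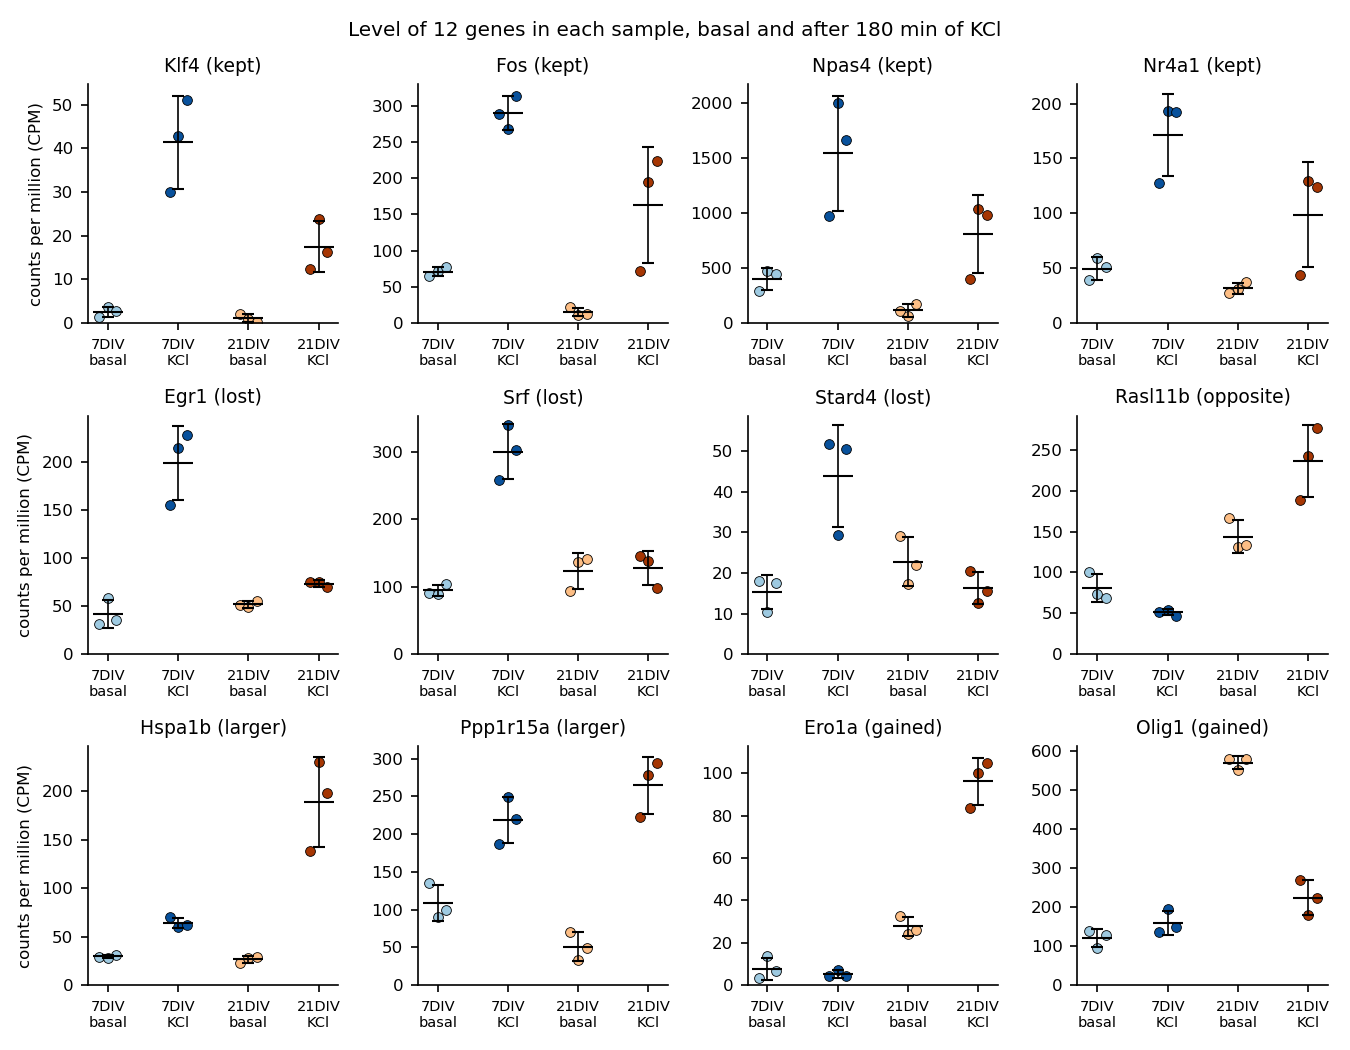
CPM (vertical axis, from 0) of 12 genes in each of the 12 samples, with group means (bars) and SD (whiskers, n = 3 per group). Klf4, Fos, Npas4 and Nr4a1 rose at both stages, Egr1 and Srf separate at 7DIV much more than at 21DIV, and Olig1 read 551 to 581 CPM in 21DIV basal samples against 180 to 269 CPM after KCl.

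A larger rise at 21DIV was called for Hspa1b and Ppp1r15a. Hspa1b, an inducible heat shock chaperone of the Hsp70 family (chromosome 17, 34956429 to 34959238), read 29.4, 28.2 and 31.2 CPM in 7DIV basal samples and 69.9, 59.5 and 62.4 CPM after KCl. At 21DIV Hspa1b read 22.5, 28.1 and 29.1 CPM before and 138, 230 and 198 CPM after KCl, so that basal levels overlapped between the stages and stimulated levels did not. The log2 change of Hspa1b was 1.10 ± 0.22 at 7DIV and 2.82 ± 0.21 at 21DIV, a difference of 1.72 ± 0.30 (adjusted p = 0.00573). Its neighbour Hspa1a (34969359 to 34972156 on the same chromosome), which codes for a nearly identical protein, changed by 2.68 ± 0.49 and 4.23 ± 0.39 from a basal level between 0 and 3.52 CPM. Reads of Hspa1a and Hspa1b can be assigned to either copy, so the split between them is uncertain.

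Ppp1r15a codes for the regulatory subunit that directs protein phosphatase 1 to eIF2alpha and so reverses the translational arrest of the stress response. It read 135, 90.2 and 100 CPM in 7DIV basal samples and 187, 249 and 220 CPM after KCl, against 70.7, 32.5 and 49.7 CPM and 222, 278 and 294 CPM at 21DIV. The log2 change of Ppp1r15a was 1.01 ± 0.20 at 7DIV and 2.37 ± 0.20 at 21DIV (difference 1.36 ± 0.28, adjusted p = 0.0161). The stimulated levels at both stages overlap, and the basal levels do not.

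Among the lost rises was Egr1, a zinc finger immediate early factor. Egr1 read 30.8, 58.9 and 35.8 CPM in 7DIV basal samples and 155, 215 and 228 CPM after 180 min of KCl. At 21DIV it read 51.2, 48.6 and 55.7 CPM before and 75.5, 75.5 and 69.4 CPM after KCl. All 3 stimulated 21DIV samples lay above the basal ones, but by far less than at 7DIV. The log2 change of Egr1 was 2.29 ± 0.23 at 7DIV and 0.50 ± 0.22 at 21DIV, a difference of -1.78 ± 0.32 (adjusted p = 0.00618) that was called in each of the 12 fits that left out a sample and under each of 11 other settings. Among the named gained and lost genes Pdlim1, Cartpt, Olig1 and Mdga1 were also called in each of those 12 fits. Other calls were less stable, and of the 12 fits 2 called Asap2, 3 Relt, 3 Tmem255b, 4 Ero1a, 4 Camk4 and 4 Stard4.

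Srf, the serum response factor that binds upstream of many immediate early genes, was a lost rise as well. It read 90, 89.6 and 104 CPM in 7DIV basal samples and 258, 340 and 303 CPM after KCl, against 92.9, 136 and 141 CPM and 146, 138 and 98.6 CPM at 21DIV. Srf changed by 1.66 ± 0.27 at 7DIV and 0.05 ± 0.25 at 21DIV (difference -1.61 ± 0.37, adjusted p = 0.0307). Crem, a CREB family gene, had changes of 1.56 ± 0.19 and 0.57 ± 0.18, but its difference of -0.99 ± 0.26 was not called (adjusted p = 0.0648).

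Further lost rises were Nr1d2, a circadian nuclear receptor (1.00 ± 0.21 at 7DIV, -0.32 ± 0.18 at 21DIV), and Usp1, a deubiquitinase of DNA repair (1.38 ± 0.26 and -0.29 ± 0.24). The pre-mRNA splicing gene Cwc25 rose by 1.80 ± 0.20 at 7DIV against a change of 0.58 ± 0.19 at 21DIV. Unc80, a subunit of the NALCN sodium leak channel complex, Jade2, a chromatin reader, and Tmem255b, a membrane protein gene, had larger differences of -2.33 ± 0.52, -3.04 ± 0.62 and -3.76 ± 0.87. These last 3 were scarce in 7DIV basal samples, at 0.613 to 2.71 CPM for Unc80, 0.813 to 2.45 CPM for Jade2 and 0 to 1.42 CPM for Tmem255b. Their levels after KCl at 7DIV stayed below the basal levels at 21DIV. In the fit without the 3 libraries apart the differences for Usp1 (-1.44, adjusted p = 0.0531) and Cwc25 (-0.90, adjusted p = 0.0844) were not called.

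The lost falls changed downward at 7DIV alone. Ets2, a factor of the ETS family, read 29.8, 17.2 and 19 CPM in 7DIV basal samples and 14.1, 5.95 and 5.43 CPM after KCl, against 25.4, 24.5 and 21.9 CPM and 26.3, 29.3 and 28.8 CPM at 21DIV. Ets2 changed by -1.39 ± 0.28 and 0.23 ± 0.22 (difference 1.62 ± 0.36, adjusted p = 0.0286). Thrsp, a gene tied to lipid synthesis, changed by -1.14 ± 0.31 and 0.69 ± 0.24, and Peli3, a ubiquitin ligase of innate immune signalling, by -1.28 ± 0.26 and 0.34 ± 0.23. The zinc finger genes Zfp334 and Zfp60 had differences of 2.18 ± 0.49 and 1.80 ± 0.39, and Ccdc86, which codes for a coiled-coil protein, of 1.62 ± 0.38. Nrp1, a co-receptor for semaphorins and VEGF, fell by 0.89 at 7DIV on the log2 scale and changed by 0.41 ± 0.22 at 21DIV. The differences for Thrsp (1.38, adjusted p = 0.0692) and Nrp1 (1.18, adjusted p = 0.0730) were not called without the 3 libraries apart.

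Opposite responses at both stages were called for 3 genes. Rasl11b, a small GTPase of the Ras family, fell at 7DIV from 100, 73 and 68.5 CPM to 51.4, 54.4 and 47.2 CPM and rose at 21DIV from 167, 131 and 134 CPM to 189, 243 and 277 CPM (difference 1.38 ± 0.23, adjusted p = 0.00481). The groups of Rasl11b did not overlap at either stage, and the log2 changes were -0.66 ± 0.17 and 0.72 ± 0.15. Another, Prr32, read at most 6.84 CPM in any sample and was at 0 in all 3 stimulated 7DIV samples, so no fold change is given.

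Gained rises included Ero1a, Hilpda, Cartpt and Pdlim1. Ero1a, the oxidase that restores protein disulfide isomerase in the endoplasmic reticulum, read 3.32, 13.5 and 6.5 CPM in 7DIV basal samples and 4.29, 7.23 and 4.07 CPM after KCl. At 21DIV Ero1a read 32.7, 24.1 and 26.2 CPM before and 83.5, 99.9 and 105 CPM after KCl. The groups overlapped at 7DIV and were far apart at 21DIV, with log2 changes of -0.51 ± 0.44 and 1.79 ± 0.27 and a difference of 2.30 ± 0.52 (adjusted p = 0.0292).

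Hilpda, a lipid droplet protein gene known for its induction by hypoxia, read 22.3, 20.9 and 32.5 CPM in 7DIV basal samples and 18, 6.38 and 23.4 CPM after KCl. At 21DIV it read 36.3, 11.4 and 19.3 CPM before and 53.3, 68 and 63.7 CPM after KCl, a difference between the stages of 2.14 ± 0.46 (adjusted p = 0.0218). Slc2a1, the glucose transporter GLUT1, changed by -0.47 ± 0.34 at 7DIV and 1.23 ± 0.22 at 21DIV, and Ndrg1, a stress- and hypoxia-responsive gene, by 0.14 ± 0.26 and 1.88 ± 0.26. The difference for Ndrg1 was 1.74 ± 0.36, and 2.42 without the 3 libraries apart.

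Cartpt, the precursor of the CART neuropeptide, read 84.3, 52.8 and 49 CPM in 7DIV basal samples and 27.9, 44.6 and 31.2 CPM after KCl. At 21DIV Cartpt was scarce in basal samples, at 4.32, 2.86 and 6.53 CPM, and reached 15.2, 15.8 and 19.8 CPM after KCl. The stimulated 21DIV samples thus stayed below each 7DIV sample, although the change of 1.83 ± 0.38 was called at 21DIV and that of -0.84 ± 0.33 was not at 7DIV (difference 2.67 ± 0.50, adjusted p = 0.00992).

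Pdlim1, a PDZ and LIM domain adaptor of the actin cytoskeleton, went from 6.22, 3.04 and 4.2 CPM to 11.7, 26.5 and 23.4 CPM at 21DIV, with a difference of 2.84 ± 0.58 from its change at 7DIV (adjusted p = 0.0161). Gipr, the receptor of the gut hormone GIP, and Relt, a receptor of the tumour necrosis factor family, had differences of 2.19 ± 0.46 and 2.05 ± 0.50. Chac1, a glutathione-degrading enzyme under ATF4 control, changed by -0.85 ± 0.25 and 1.12 ± 0.24, and Rgs2, a regulator of G protein signalling, by -0.25 ± 0.23 and 1.34 ± 0.23. Klf6, a relative of Klf4, read 67.3, 83.2 and 91.3 CPM in 21DIV basal samples and 129, 176 and 148 CPM after KCl, with a difference of 1.33 ± 0.22 (adjusted p = 0.00493). Lama5, a laminin chain gene, went from 1.9, 0.715 and 2.32 CPM to 5.84, 8.2 and 5.66 CPM at 21DIV, and no difference is given for it since all 3 stimulated 7DIV samples were at 0.

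Gained falls included a transcription factor of glia and kinases of calcium signalling. Olig1, the bHLH factor of the oligodendrocyte lineage, read 138, 93.8 and 129 CPM in 7DIV basal samples and 135, 194 and 149 CPM after KCl. At 21DIV Olig1 read 580, 551 and 581 CPM before and 269, 180 and 223 CPM after KCl, without overlap. Its log2 changes were 0.40 ± 0.20 and -1.35 ± 0.19, a difference of -1.75 ± 0.27 (adjusted p = 0.00345). The summed level of all 12 oligodendrocyte and precursor markers, Olig1 included, was 464 to 743 CPM in 7DIV basal samples, 623 to 810 CPM after KCl, 2563 to 3362 CPM in 21DIV basal samples and 1360 to 1864 CPM after KCl. Of the 11 markers tested the difference was called for 1, Olig1 (0.775% of all genes), and it lay above 0 for 3. In bulk RNA fewer cells of a type and less RNA per cell cannot be told apart.

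Camk4, a nuclear calcium/calmodulin-dependent kinase, and Camkk2, the kinase that activates it, fell at 21DIV. Camk4 read 86.3, 147 and 123 CPM in 21DIV basal samples and 72.6, 57.6 and 56.2 CPM after KCl, against 76.3, 64.4 and 61.5 CPM and 79.3, 90.1 and 70.9 CPM at 7DIV. The difference between the stages was -1.19 ± 0.27 for Camk4 (adjusted p = 0.0313) and -1.07 ± 0.24 for Camkk2 (adjusted p = 0.0292). Mdga1, a membrane protein that binds neuroligins, went from 243, 325 and 352 CPM to 160, 118 and 152 CPM at 21DIV (difference -1.29 ± 0.24, adjusted p = 0.00992). The differences for Yy2, a zinc finger gene related to Yy1, Asap2, an Arf GTPase-activating protein gene, and Polr3b, a core subunit of RNA polymerase III, were -2.46 ± 0.48, -1.46 ± 0.36 and -1.34 ± 0.31, of which that for Polr3b was not called without the 3 libraries apart (-1.18, adjusted p = 0.0684).

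Gene lists chosen for this tissue and treatment were counted over all their tested members, beside a median difference of -0.01 over all genes. Of the 28 tested activity-regulated transcription factors 15 rose at 7DIV and 18 rose at 21DIV, against 1.05% and 2.98% of all genes, and 1 of them, Egr3, fell at 21DIV. The difference between the stages was called for 2 of the 28, positive for Klf6 and negative for Egr1, and the median difference was 0.57. With the 3 libraries apart left out 9 of the 28 differences were called, 8 of them positive, against 3.13% of all genes. Atf3, a stress-inducible factor, changed by 1.08 ± 0.69 at 7DIV and 2.96 ± 0.51 at 21DIV, and its difference was not called (adjusted p = 0.322).

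Of 21 ATF4 stress genes 1, Atf4 itself, rose at 7DIV and 12 rose at 21DIV, against 1.05% and 2.98% of all genes, and the median difference was 0.69. The difference was called for 1 of the 21, Chac1, and for 4, each positive, without the 3 libraries apart (3.13% of all genes). Ddit3, the factor CHOP, changed by -0.23 ± 0.36 and 1.37 ± 0.30 (adjusted p of the difference 0.0903), and Slc7a5, an amino acid transporter, by 0.02 ± 0.21 and 1.07 ± 0.20 (adjusted p = 0.0807). Of 27 glycolysis and hypoxia response genes 7 rose at 21DIV (2.98% of all genes), the median difference was 0.47, and the difference was called for 1 of the 27, Slc2a1. Without the 3 libraries apart it was called for 4 of the 27, positive for 3 and negative for 1. At 7DIV the count of rises was 0 by edgeR and 0 by DESeq2, with 2 rises at an unadjusted p under 0.05. Among them Pfkfb3, an activator of glycolysis, changed by 0.14 ± 0.27 and 1.59 ± 0.25, and Vegfa, the angiogenic growth factor, by 0.50 ± 0.18 and 1.19 ± 0.16.

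Cholesterol synthesis ran the other way, with 4 of 22 genes rising at 7DIV (1.05% of all genes) and 2 falling at 21DIV (1.91%), and a difference above 0 in 1 of 22 (median -0.41). Both called differences were negative (0.341% of all genes), among them that for Stard4, an intracellular sterol carrier that read 18, 10.4 and 17.6 CPM before and 51.9, 29.3 and 50.5 CPM after KCl at 7DIV (difference -1.97 ± 0.46, adjusted p = 0.0313). Leaving out the 3 libraries apart gave a difference for Stard4 of -1.79, no longer called (adjusted p = 0.0512). In that fit 1 of the 22 genes rose at 7DIV, beside 83 of all 11662 genes, and 2 fell at 21DIV. The difference was then called for 1 of the 22, and the median was -0.42. Msmo1, a sterol demethylation enzyme, rose by 0.76 ± 0.11 at 7DIV and changed by 0.30 ± 0.11 at 21DIV (adjusted p of the difference 0.174).

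Of 32 postsynaptic scaffold and kinase genes 5 fell at 21DIV (1.91% of all genes), with called differences for Camk4 and Camkk2 and a median difference of -0.29. Of 46 potassium channel genes 2 fell at 7DIV and 5 at 21DIV, against 0.937% and 1.91% of all genes, and Kcns2, a silent subunit, fell at both stages (-1.54 ± 0.26 and -0.91 ± 0.22). Of 24 secreted and neuropeptide genes 5 rose at 21DIV (2.98% of all genes), among them Bdnf, the neurotrophin, with changes of 0.35 ± 0.23 at 7DIV and 0.78 ± 0.22 at 21DIV, and Scg2, a granin of dense-core vesicles, with 0.01 ± 0.16 and 0.91 ± 0.16 (adjusted p of the difference 0.0570). Of 27 synaptic and signalling effectors 3 rose at 7DIV and 9 at 21DIV, against 1.05% and 2.98% of all genes, and the difference was called for Rgs2. Of 18 heat shock chaperones 3 rose at 7DIV and 4 at 21DIV, beside the same shares of all genes, with a median difference of -0.21, so that Hspa1b stood apart from most of its list. Without the 3 libraries apart 12 of the 46 potassium channel genes and 9 of the 32 postsynaptic genes fell at 21DIV, beside 547 of all 11662. Differences, each positive, were then called for 3 of the 24 secreted genes and 3 of the 27 effectors (3.13% of all genes).

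**Figure D3:**
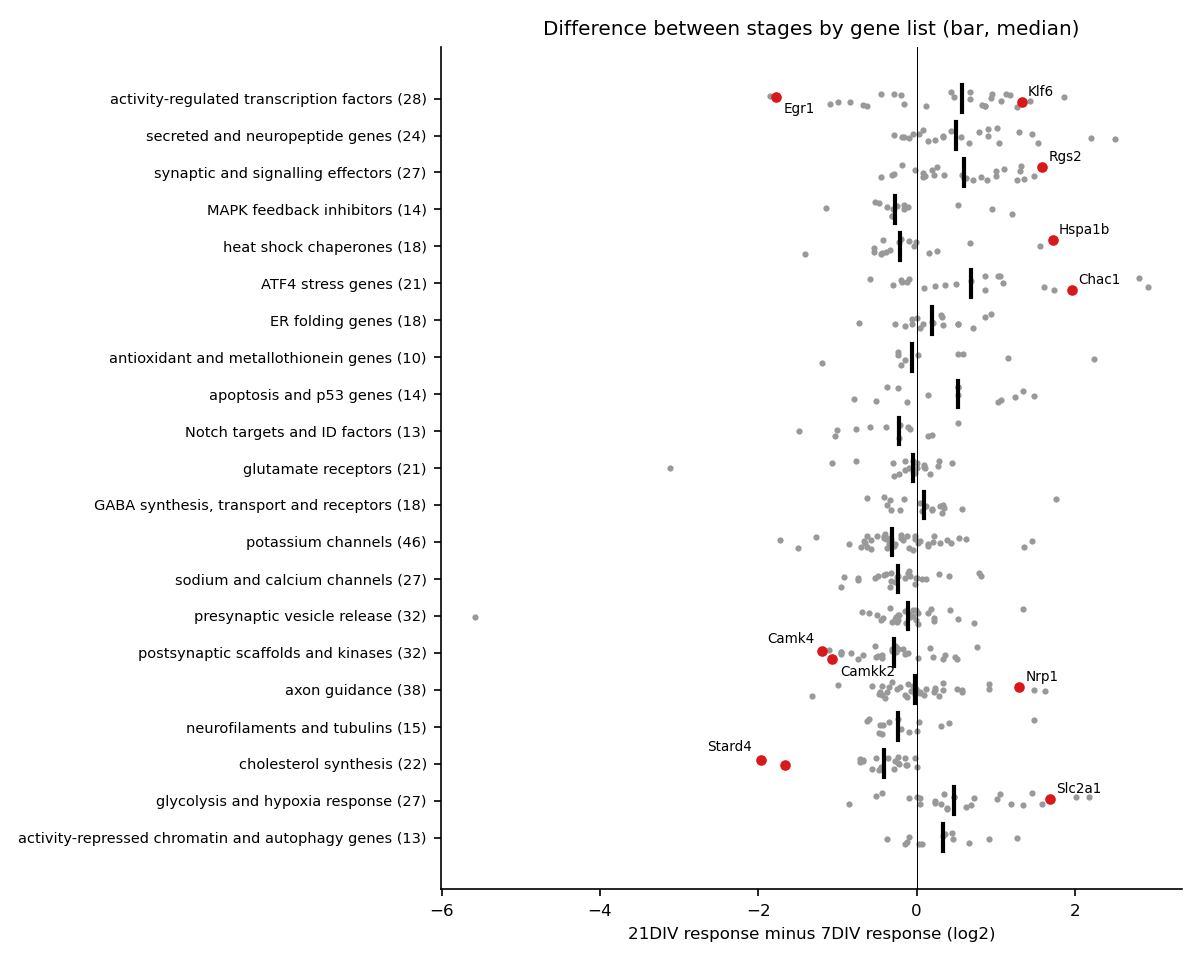
The 21DIV change minus the 7DIV change (horizontal axis, log2) for the tested members of each gene list (rows, with the number tested), red where the difference was called and black bars at the medians. ATF4 stress genes (median 0.69) lie mostly to the right of 0 and cholesterol synthesis genes (median -0.41) to the left.

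RNA of other cells differed between the groups as well. Astrocyte markers summed to 613 to 1003 CPM in 7DIV basal samples, 888 to 1140 CPM after KCl, 2076 to 2390 CPM in 21DIV basal samples and 1654 to 2457 CPM after KCl. The difference lay above 0 for 3 of the 12 astrocyte markers (median -0.97) and was called for 0. Without the 3 libraries apart it was called for 2 of the 12, each negative (3.13% of all genes). The sum for proliferating and progenitor cells was 342 to 416 CPM in 7DIV basal samples and 404 to 523 CPM after KCl. At 21DIV it was 617 to 770 CPM before and 453 to 505 CPM after KCl. All 9 of its genes had a difference below 0, whereas 5728 of all 11745 tested genes lay above 0. The difference was called for 1 of the 9, the mitotic kinase Cdk1 (-1.82 ± 0.42, adjusted p = 0.0313), against 0.341% of all genes called negative. Without the 3 libraries apart the difference for Cdk1 was -1.48 (adjusted p = 0.0897). The part of these cells in the gained falls was not tested. Of the 8 neuron markers 0 had a called difference with all libraries (0.775% of all genes). Without the 3 libraries apart 2 of the 8 were called, each negative (3.13% of all genes).

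Each class was followed from basal through 15 min to 180 min of KCl, where the changes at both times share the basal samples and are given side by side. After 15 min 6.23% of genes were called at 21DIV, with 3.21% rising and 3.02% falling, and at 7DIV 0 were called by edgeR, with 659 genes at an unadjusted p under 0.05. Kept rises had a median log2 change of -0.18 after 15 min and 1.20 after 180 min at 7DIV, and of 0.41 and 1.19 at 21DIV. Gained rises had medians of 1.22 after 15 min and 1.34 after 180 min at 21DIV, against -0.27 and -0.39 at 7DIV. These 21DIV medians were close at both times, and Pdlim1 (2.21 and 2.19) and Cartpt (1.89 and 1.83) are examples. The class was chosen against the same 21DIV basal samples, so low basal values in its genes raise both medians together. The likeness of both times is therefore no separate result. Klf6 differed from them, with 0.10 after 15 min and 0.90 after 180 min. Gained falls had medians of -0.69 and -0.89 at 21DIV, and lost rises of 0.30 and 1.44 at 7DIV.

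With the KCl 15 min samples in place of the basal ones, a setting chosen after the data were seen, the difference between the stages was called for 21 genes, 0.179% of those tested. Of the 29 gained rises 1 was among them, and their median difference was 0.24 where it had been 1.74 against basal. The 12 lost falls had a median difference of 1.31, against 1.62 from basal, and 3 of them were called. The 14 lost rises had a median of -0.64, against -1.56 from basal, and 3 were called. For Ppp1r15a the difference was -0.18 in this setting, and its 21DIV change after 15 min had been 1.48. From 15 to 180 min at 21DIV a further rise was called for 20 of the 43 kept rises and 2 of the 29 gained rises, against 0.647% of all genes. Both contrasts use the same KCl 180 min samples.

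**Figure D4:**
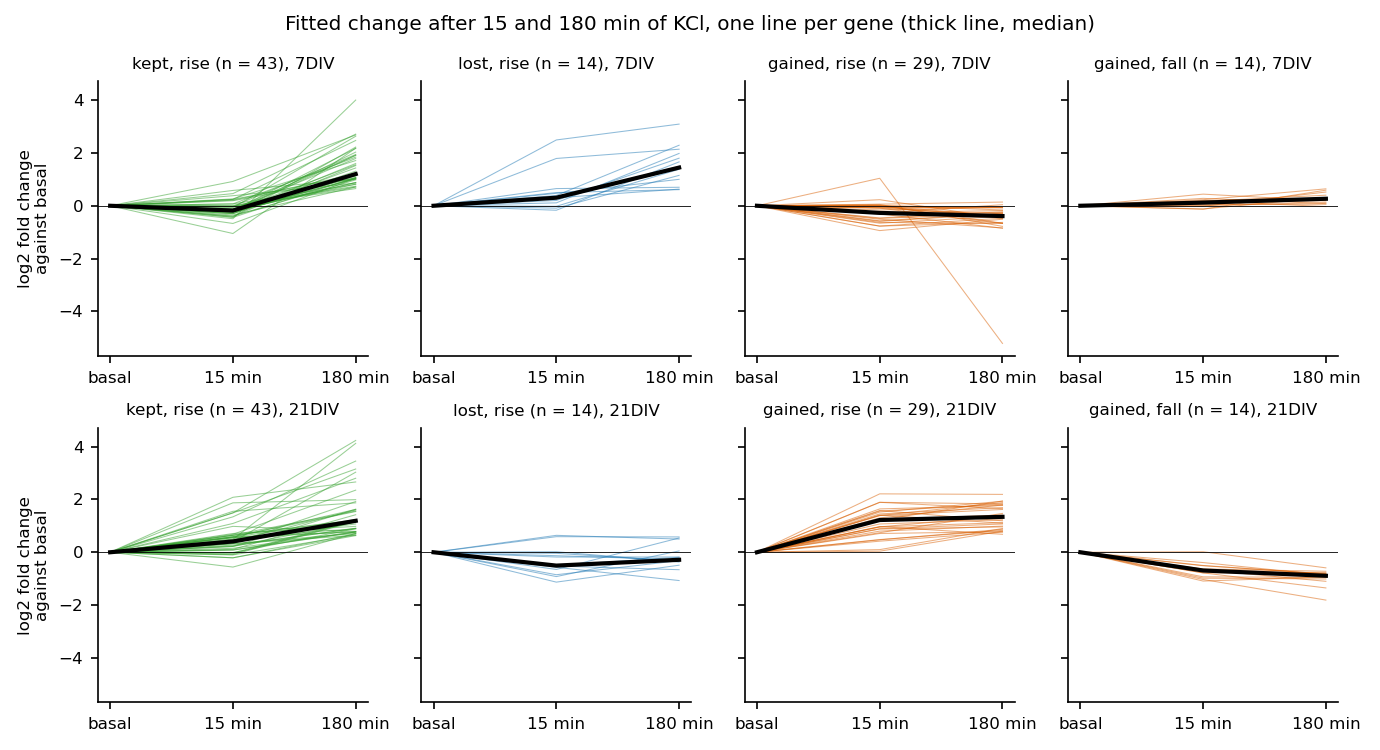
Fitted log2 change against basal (vertical axis) after 15 and 180 min of KCl (horizontal axis) at 7DIV (upper row) and 21DIV (lower row), 1 line per gene and a thick line for the median of each class. Gained rises reach a median of 1.22 at 15 min and 1.34 at 180 min at 21DIV, whereas kept rises at 7DIV have a median of -0.18 at 15 min and 1.20 at 180 min.

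The stimuli experiment of the same series held separate samples at 21DIV, 3 basal and 2 with KCl for 180 min, at 1277227 to 3476095 counts per library. There 100 of 12026 genes were called, 0.832%, and of the genes measured in both experiments 0.682% were called in the direction of the maturation experiment and 55.1% had the same sign. Of the 43 kept rises 41 had the same sign and 17 were called, and Klf4 (2.61 ± 0.40), Fosb (2.29 ± 0.24), Nr4a2 (2.43 ± 0.30) and Junb (1.65 ± 0.24) were among them. For both genes of the larger class a 21DIV rise was called again, Hspa1b at 1.66 ± 0.22 and Ppp1r15a at 1.04 ± 0.20. In the maturation experiment Hspa1b had changed by 2.82 at 21DIV and 1.10 at 7DIV, and Ppp1r15a by 2.37 and 1.01. Of the 10 kept falls 2 were called, Hes5 at -2.24 ± 0.34 and Mir124a-1hg at -1.64 ± 0.32. Of 28 activity-regulated transcription factors 9 rose there and of 20 ATF4 stress genes 1, against 0.582% of all genes. Of 26 glycolysis and hypoxia response genes 1 rose and of 22 cholesterol synthesis genes 2. Medians of these lists were 0.56, 0.19, 0.07 and 0.34, beside 1.57, 0.85, 0.47 and 0.01 at 21DIV in the maturation experiment. Of 32 postsynaptic genes 0 fell (0.249% of all genes), with a median of 0.11 beside -0.24.

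The gained genes were not called there. Of the 29 gained rises 18 had the same sign, and their median change was 0.07 against 1.34 in the maturation experiment. The count called among all 43 gained genes was 0 by edgeR and 0 by DESeq2, with 10 and 7 of them at an unadjusted p under 0.05, and it was 1 in a fit on the compared groups alone. Ero1a changed by 0.53 ± 0.23, Hilpda by 0.63 ± 0.19, Ndrg1 by -0.12 ± 0.17, Cartpt by 0.00 ± 0.33 and Olig1 by -0.17 ± 0.21. A fall was called there for 2 of 11 oligodendrocyte and precursor markers (0.249% of all genes), Olig1 not among them. Of the lost genes Egr1 changed by 0.02 ± 0.22 and Srf by 0.22 ± 0.22 in this experiment, beside 0.50 ± 0.22 and 0.05 ± 0.25 at 21DIV in the maturation experiment. No 7DIV samples were part of the stimuli experiment, and what separates the experiments was not tested.

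**Figure D5:**
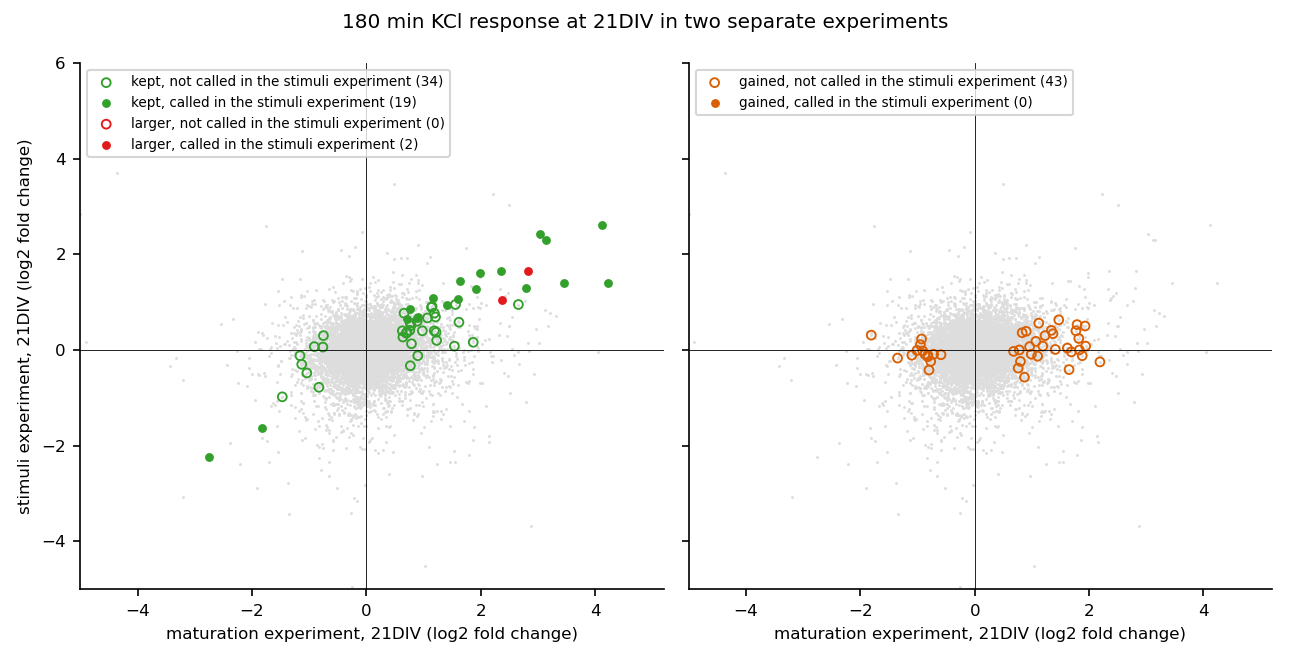
Log2 change after 180 min of KCl at 21DIV in the maturation experiment (horizontal axis) and in the stimuli experiment (vertical axis) for kept and larger genes (left) and gained genes (right), filled where called in the stimuli experiment with all genes in grey. Filled points are 19 of 53 kept genes and both larger genes, while the 43 gained genes are open.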

How the data were processed

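Sequencing libraries were CEL-Seq2, and per the methods of the study STAR placed reads on mm10 and the End Sequence Analysis Toolkit quantified them. The authors deposited raw counts, whole numbers for each RefSeq transcript. Whether molecular identifiers were collapsed is not given in the sources used here. Transcripts were matched to symbols by RefSeq accession on GRCm38.p6, the same build (78903 of 97700 matched, and 18.5% of counts stayed unmatched and were left out). The transcript with the most counts stood for its gene. Genes above 5 CPM in at least 2 of 28 samples were scaled by TMM and fitted over all 10 groups of the maturation experiment with edgeR 4.0.16 (quasi-likelihood, R 4.3.3), so that groups outside the contrast share in the estimate of spread. DESeq2 1.42.0 was an alternative. P-values were adjusted by Benjamini-Hochberg over all genes tested. Errors of log2 changes are standard errors from the same test, and printed CPM are scaled by TMM except for marker sums. Named genes were taken by class, without overlap between groups in the stage or stages that define the class and with a mean of at least 3 log2 CPM, by size of the difference (kept: by the smaller of both changes), up to 6 per direction for gained, lost and kept rises. Up to 4 were taken of kept falls and of the larger and opposite classes, Y-linked genes aside. Other genes in the text come from the lists or were chosen after their values were seen. The classes, lists and tests were chosen with earlier results of these data known. The fit was tested on simulated data. A gene that the rule names is counted but not reported here.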

Additional observations from a re-analysis of the deposited data

Results flagged for a closer look

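The stage difference of the late KCl response passed the test of the difference itself for 91 genes, and the genes of those classes named by rule are listed here with the 21DIV change minus the 7DIV change on the log2 scale. For gained rises it was 2.84 for Pdlim1, 2.67 for Cartpt, 2.30 for Ero1a, 2.19 for Gipr, 2.14 for Hilpda and 2.05 for Relt. For gained falls it was -2.46 for Yy2, -1.75 for Olig1, -1.46 for Asap2, -1.34 for Polr3b, -1.29 for Mdga1 and -1.19 for Camk4. For lost rises it was -3.76 for Tmem255b, -3.04 for Jade2, -2.33 for Unc80, -1.97 for Stard4, -1.78 for Egr1 and -1.67 for Usp1. For lost falls it was 2.18 for Zfp334, 1.84 for Thrsp, 1.80 for Zfp60, 1.63 for Peli3, 1.62 for Ets2 and 1.62 for Ccdc86. The larger rises were Hspa1b with 1.72 and Ppp1r15a with 1.36, and Rasl11b responded in opposite directions with 1.38. Groups of 3 samples are too small for a test of outlying samples.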

How the results depend on the processing

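Counts of calls depended on the setting. The stage difference was called for 91 genes, and for 212 with DESeq2, 251 with edgeR's likelihood ratio test, 303 without a filter on low counts, 229 at an adjusted p under 0.10, 45 on the compared groups alone, 34 with counts thinned to the smallest library and 21 with the KCl 15 min samples as reference. Leaving out 1 sample gave 36 to 288 differences, 107 to 253 responses at 7DIV, 230 to 885 at 21DIV, 15 to 186 gained, 11 to 35 lost and 31 to 66 kept genes, the highest count of differences without 21DIV KCl 180 min replicate 1 (288, of which 90 among the 91) and the next without 21DIV basal replicate 1 (196). Without the 3 libraries apart, chosen after seeing the data, there were 365 differences, 1140 responses at 21DIV and 280 gained genes. Gained genes numbered 99 with DESeq2, 119 with the likelihood ratio test, 26 on the compared groups, 156 unfiltered and 20 thinned, and lost genes 46, 64, 13, 59 and 4. Responses at 7DIV numbered 356 with the likelihood ratio test, 145 on the compared groups and 66 thinned. Thinning also left 299 responses at 21DIV and 18 kept genes, and counts summed over transcripts gave 360 responses at 21DIV and 17 lost genes. In the stimuli experiment 176 genes were called on the compared groups alone and 23 to 59 without 1 sample. Of the 28 named differences 28 were called with DESeq2, 10 with thinned counts, 3 with the KCl 15 min reference and 14 to 28 without 1 sample, and 1 changed sign, Ppp1r15a at -0.18 with the KCl 15 min reference. These 28 were picked for large differences in the same samples, which favours a steady sign. Over whole classes that reference kept the sign for 23 of 29 gained rises and 12 of 14 gained falls. It did so for 13 of 14 lost rises and 12 of 12 lost falls. Without a filter the differences for Fos, Fosb and Npas4 were called too. The cause of these changes was not tested. Leaving out and thinning also lower the number of samples or counts, yet leaving out some samples raised the count of calls.

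The labels do not say whether samples with the same replicate number belong together. The correlations of same-numbered deviations lay between -0.247 and 0.029, and groups of 3 samples are too small to exclude a shared culture. With a replicate block 38 differences, 98 responses at 7DIV, 20 gained, 14 lost and 32 kept genes were called.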

Other observations

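Of the 17 genes with a called stage difference but no called response at either stage, 11 had the more negative change at 21DIV and 6 the more positive, and in each the changes at 7DIV and 21DIV had opposite signs. Cadps, which primes dense-core vesicles for release, changed by 0.13 ± 0.10 at 7DIV and -0.44 ± 0.10 at 21DIV, the latter under the 1.5-fold limit. Bmp3, a growth factor of the bone morphogenetic protein family, changed by -0.80 ± 0.23 and 0.69 ± 0.23, and Aplp2, a relative of the amyloid precursor protein, by 0.53 ± 0.15 and -0.42 ± 0.14. Snurf and Snrpn, which share a transcript, had a difference of -0.85 ± 0.20 each, and they count as 2 of the 17.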
